A study of Rattus norvegicus with 9 samples.

Results

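Metallothioneins and zinc transport were followed through 7 genes in rat striatum, chosen by their gene IDs among the 22890 IDs of the count files: the metallothioneins Mt1, Mt2A and Mt3, the transcription factor Mtf1, the zinc exporters Slc30a1 and Slc30a3 and the importer Slc39a14. All 7 had rows in every file and all 7 passed the filter on low counts, which left 14274 genes. RNA of striatal tissue from Rattus norvegicus had been sequenced in 9 libraries, 3 of each group. Sham served as control, ICH stands for intracerebral hemorrhage, in which blood escapes into brain tissue, and EDB for edaravone dexborneol, which combines the radical scavenger edaravone with dexborneol. The labels give no strain, genotype, sex, age, dose or time for any group, and they do not state whether the EDB rats had a hemorrhage, so EDB was set against both other groups. Nor do they say whether each library came from its own animal, so p-values measure only the spread between these samples, which may be technical. In bulk tissue, fewer cells of a type and less RNA per cell cannot be told apart.

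Metallothioneins are small cysteine-rich proteins that bind zinc and copper and can take up reactive oxygen species. In brain, Mt1 and Mt2A are known from rodents as inducible forms made largely by astrocytes, whereas Mt3 is a constitutive brain form. Mtf1 senses free zinc and, in mouse, switches on Mt1, Mt2 and Slc30a1 by binding metal response elements in their promoters. Zinc leaves the cytoplasm through Slc30 transporters and enters it through Slc39 transporters.

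The promoters of the metallothioneins and of Slc30a1 are shown because Mt1, Mt2A and Slc30a1 correspond to genes that Mtf1 regulates in mouse, and Mt3 stands beside them as the constitutive form of the same family. The RefSeq table of the assembly GRCr8 held a promoter for 6 of the 7 genes. Each line gives the 250 bases before the annotated gene start, 5′ to 3′ on the gene's strand. Capitals mark the metal response element core, searched as TGCACNC or TGCGCNC on both strands, and no 2 of the marked cores overlap. The window of Mt1 lies at chr19:10832976-10833225, that of Mt2A at chr19:10838709-10838958 and that of Mt3 at chr19:10856081-10856330, all on the minus strand. The window of Slc30a1 lies at chr13:106021769-106022018 on the plus strand.
Mt1: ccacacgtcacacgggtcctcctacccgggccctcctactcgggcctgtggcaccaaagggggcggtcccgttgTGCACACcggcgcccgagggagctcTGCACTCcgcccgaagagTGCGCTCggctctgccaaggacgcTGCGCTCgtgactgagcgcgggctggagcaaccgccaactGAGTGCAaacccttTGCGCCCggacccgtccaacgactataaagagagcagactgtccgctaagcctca
Mt2A: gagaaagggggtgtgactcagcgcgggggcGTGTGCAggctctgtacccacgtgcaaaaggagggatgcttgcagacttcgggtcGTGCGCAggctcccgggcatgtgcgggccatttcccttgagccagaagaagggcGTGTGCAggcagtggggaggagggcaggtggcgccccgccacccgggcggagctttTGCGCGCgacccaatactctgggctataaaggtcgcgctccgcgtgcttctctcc
Mt3: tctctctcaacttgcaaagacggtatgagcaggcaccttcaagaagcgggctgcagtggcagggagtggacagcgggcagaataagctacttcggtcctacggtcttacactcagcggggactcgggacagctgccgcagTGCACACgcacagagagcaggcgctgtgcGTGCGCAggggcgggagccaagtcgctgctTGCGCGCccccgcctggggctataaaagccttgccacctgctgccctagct
Slc30a1: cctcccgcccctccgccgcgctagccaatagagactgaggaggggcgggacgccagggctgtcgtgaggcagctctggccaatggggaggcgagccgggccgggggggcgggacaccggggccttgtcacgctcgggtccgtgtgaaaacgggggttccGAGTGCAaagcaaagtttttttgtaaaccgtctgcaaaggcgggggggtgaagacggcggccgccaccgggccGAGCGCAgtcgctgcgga
The core stood 6 times before Mt1, 4 times before Mt2A, 3 times before Mt3 and 2 times before both Slc30a1 and Mtf1, and it was not in the window of Slc30a3. Of 33469 promoter windows of the same length in the table, 20.6% held at least 1 core and 4.9% at least 2. At least 3 were held by 1.17%, at least 4 by 0.266% and at least 6 by 0.0269%. These are matches of letters and do not show binding.

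**Figure D1:**
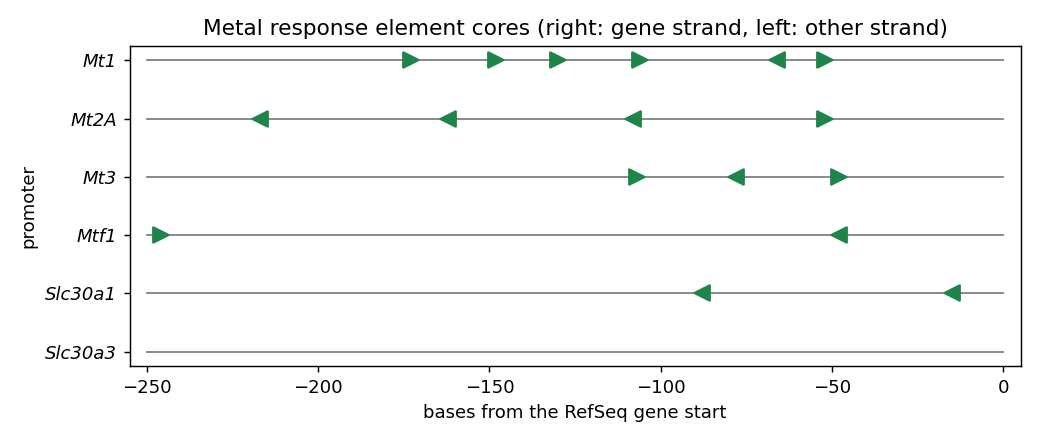
Position of each metal response element core in the 250 bases before the gene start of 6 genes, in bases from the start. Triangles pointing right are on the gene's strand and those pointing left on the other strand; Mt1 carries 6, Mt2A 4, Mt3 3, Mtf1 and Slc30a1 2 each, and Slc30a3 none.

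Total counts ran from 14658110 to 17659936 per library. Levels are CPM, counts scaled to a common library size with TMM factors, given as mean ± SD with n = 3. CPM is not scaled for transcript length, so levels are compared between libraries and not between genes. Changes are log2 fold changes ± SE from edgeR's quasi-likelihood F test on all 9 libraries, and the words rose and fell are kept for an adjusted p below 0.05 (Benjamini-Hochberg, 14274 genes). Several libraries stood apart from their group. Sham 2 was separated from Sham 1 and Sham 3 along the second principal component (-40.1 against 34.2 and 35.8). The liver markers summed to 195 CPM in Sham 1 and 193 CPM in Sham 3, against 3.56 CPM in Sham 2 and at most 30.6 CPM in the ICH and EDB libraries. ICH 1 had 0 counts of the Y-linked genes Kdm5d and Eif2s3y, which had 49 to 313 counts elsewhere. The 10 choroid plexus markers summed to 7671 CPM in EDB 3, against 33.3 to 87.0 CPM in the other 8 libraries. Calls of the members and of the other genes named were also made without Sham 2, ICH 1 and EDB 3 together and without each library in turn; leaving out Sham 1 and Sham 3 together was not run.

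ICH was compared with Sham to show what hemorrhage changed. Mt1 and Mt2A rose, to 6.82 and 8.41 times the Sham level, while Mt3, Mtf1, Slc30a1, Slc30a3 and Slc39a14 were not called. The 2 of 7 members called stand beside 18.7% of all tested genes called in this comparison, 11.4% as higher and 7.3% as lower. Both rises were called under each of the 18 alternatives run.

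Mt2A, an inducible metallothionein, had 37.9, 25.6 and 29.2 CPM in Sham, whereas ICH had 184, 252 and 345 CPM. Every ICH library lay above every Sham library. The group means were 30.9 ± 6.34 and 260.3 ± 81.1 CPM, and the log2 fold change was 3.07 ± 0.35 (95% interval 2.29 to 3.85, adjusted p = 0.000182). Mt1 had few counts, 36, 47 and 28 in Sham against 172, 204 and 519 in ICH. In CPM these were 2.25, 3.21 and 1.98 against 10.03, 12.8 and 28.0, again without overlap, and ICH 3 was the highest of the 9 libraries. The means were 2.48 ± 0.65 and 17.0 ± 9.68 CPM, and the log2 fold change was 2.77 ± 0.47 (95% interval 1.74 to 3.80, adjusted p = 0.00212). Groups that do not overlap were found for 35.6% of all tested genes in this comparison.

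Mt3, the brain form, stood at 177, 194 and 174 CPM in Sham and at 182, 231 and 282 CPM in ICH. ICH 1 lay within the Sham range. Its log2 fold change was 0.35 ± 0.16 with a 95% interval of -0.01 to 0.71 (adjusted p = 0.167). Without Sham 2, ICH 1 and EDB 3, which leaves 2 libraries a group, Mt3 was called as a rise (0.55, adjusted p = 0.0397).

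Mtf1, the zinc sensor, stood at 39.0, 48.8 and 35.5 CPM in Sham and at 53.7, 54.6 and 37.3 CPM in ICH, so that the groups overlapped (log2 fold change 0.24 ± 0.18, 95% interval -0.15 to 0.63). The plasma membrane exporter Slc30a1 stood at 20.5, 15.3 and 23.1 CPM in Sham and at 22.8, 22.7 and 22.5 CPM in ICH. The 3 ICH values lay within the Sham range, and the log2 fold change was 0.21 ± 0.18 (95% interval -0.18 to 0.59, adjusted p = 0.479). Slc39a14, which carries zinc, manganese and iron into cells, stood at 22.6, 31.0 and 26.3 CPM in Sham and at 26.7, 24.7 and 20.4 CPM in ICH (-0.15 ± 0.17, 95% interval -0.53 to 0.22).

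**Figure D2:**
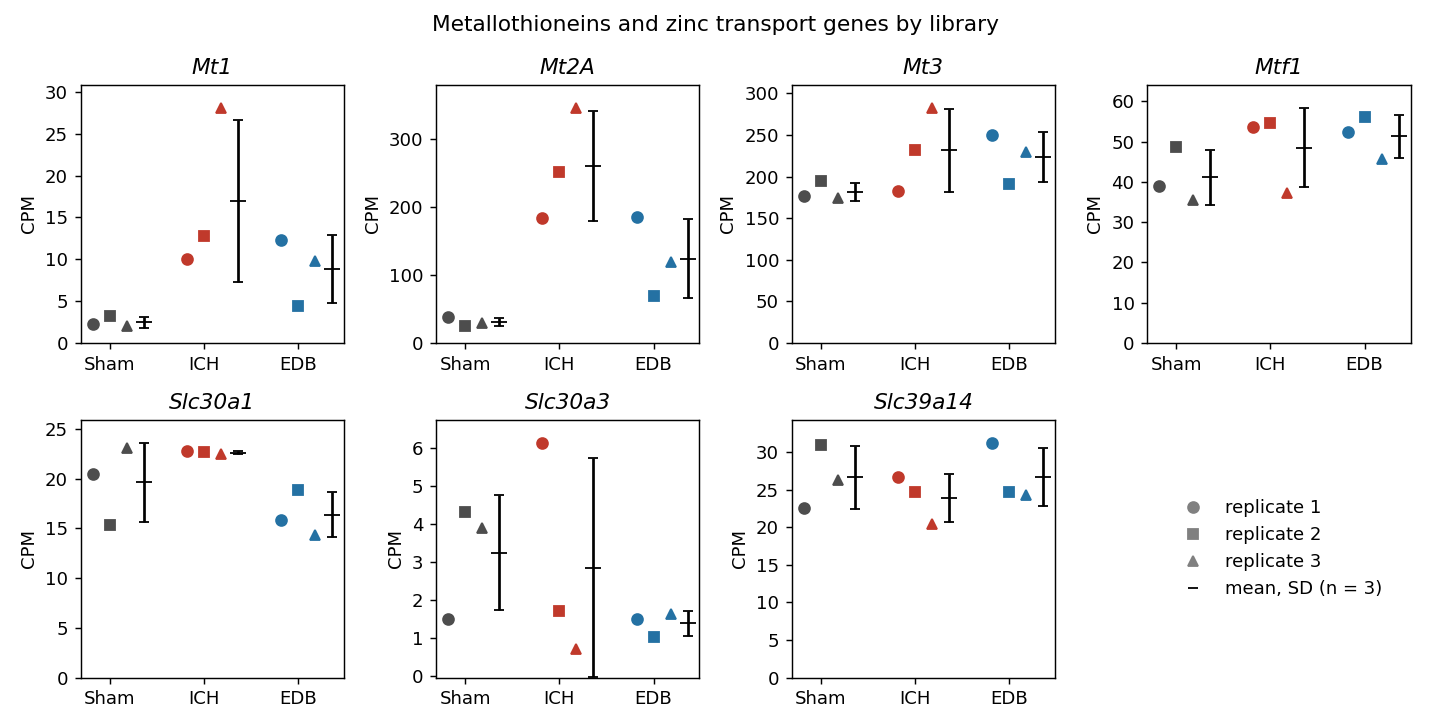
CPM of each of the 7 genes (y axis, linear) in the Sham, ICH and EDB libraries. Circles, squares and triangles are replicates 1, 2 and 3, and the black bar is the mean with its SD; for Mt1 and Mt2A all ICH and EDB libraries lie above all Sham libraries, while the groups overlap for Mt3, Mtf1, Slc30a3 and Slc39a14.

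EDB was compared with Sham to show how far the drug group stood from the controls. Mt1 and Mt2A were again the 2 of 7 members called, both as rises, beside 7.66% of all tested genes, 4.95% as higher and 2.71% as lower. The 3 EDB libraries had 185, 68.6 and 119 CPM of Mt2A, with a mean of 124 ± 58.3 CPM. All 3 lay above the Sham libraries, as was true of 26.1% of tested genes in one direction or the other. The log2 fold change was 2.01 ± 0.34 (95% interval 1.25 to 2.76, adjusted p = 0.00539), a 4.01-fold level. Leaving out any single library kept the call (adjusted p from 0.00269 to 0.0390), whereas leaving out Sham 2, ICH 1 and EDB 3 together ended it (1.92, adjusted p = 0.0624).

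Mt1 stood at 12.3, 4.44 and 9.75 CPM in the EDB libraries, a mean of 8.83 ± 4.02 CPM, with 199, 74 and 156 counts. It was above Sham in every library, and its log2 fold change was 1.83 ± 0.46 (95% interval 0.81 to 2.85, adjusted p = 0.0375). That call was lost when Sham 1, Sham 3, ICH 2, EDB 1 or EDB 3 was left out (adjusted p between 0.0532 and 0.138), without Sham 2, ICH 1 and EDB 3 together (adjusted p = 0.0663) and with limma-voom (adjusted p = 0.145). Mt3 had 250.4, 191 and 229.9 CPM in EDB, of which EDB 2 lay within the Sham range (0.30 ± 0.16, 95% interval -0.06 to 0.66). The other members were not called: Mtf1 had 0.32 ± 0.18, Slc30a1 -0.26 ± 0.18 and Slc39a14 0.01 ± 0.17.

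EDB was compared with ICH to show how the drug group differed from the hemorrhage group. None of the 7 members was called by edgeR or by limma-voom, beside 0.687% of all tested genes (0.056% higher and 0.631% lower), and 2 of 7 had an unadjusted p under 0.05. Those were Mt2A and Slc30a1. The share of all tested genes with an unadjusted p under 0.05 is not given. Such counts, here and for the gene lists below, therefore have no background to be read against. The mean of Mt2A was lower in EDB than in ICH by 1.07 ± 0.33 on the log2 scale (95% interval from -1.79 to -0.35, adjusted p = 0.150). EDB 1, at 185 CPM, overlapped ICH 1, at 184 CPM, while EDB 2 and EDB 3 lay below all ICH libraries. DESeq2 called this difference (-1.05, adjusted p = 0.0271), the only member called by that tool here. Mt1 had -0.94 ± 0.43 (adjusted p = 0.308), with EDB 1 and ICH 1 and ICH 2 interleaved. Slc30a1 stood at 15.9, 18.9 and 14.4 CPM in EDB, all below the 3 ICH libraries, a separation found for 25.2% of tested genes in either direction. Its log2 fold change was -0.47 ± 0.18 (95% interval -0.85 to -0.08, adjusted p = 0.223). The intervals for Mt3 (-0.41 to 0.31), Mtf1 (-0.31 to 0.47) and Slc39a14 (-0.22 to 0.54) covered 0. For Mt2A and Mt1 the order of the means was ICH, EDB, Sham, in which the neighbours ICH and EDB were not separated by the test and EDB and Sham were.

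Ratios of counts within a library do not depend on library scaling. Mt2A had 0.215, 0.132 and 0.168 counts per count of Mt3 in the Sham libraries, 1.01, 1.09 and 1.22 in ICH and 0.738, 0.359 and 0.518 in EDB. The 3 groups did not overlap. On the log2 scale the mean ratio was -2.57 ± 0.35 in Sham, 0.14 ± 0.14 in ICH and -0.95 ± 0.52 in EDB. ICH exceeded Sham by 2.72, EDB exceeded Sham by 1.62, and EDB was lower than ICH (difference -1.10). Each had p = 0.1 in a two-sided exact permutation test, the smallest value that 3 against 3 libraries allow, so none could pass 0.05. The ratio of Mt2A to Mt1 ran from 7.96 to 19.6 counts per count, and its groups overlapped in all 3 comparisons (exact permutation p = 0.5, 0.4 and 0.8). Mt1 and Mt2A are alike in sequence and the reference table also lists Mt1 pseudogenes, so their reads could have been divided or lost in counting. With the counts of Mt1 and Mt2A summed, the log2 fold change was 3.05 in ICH against Sham, 1.99 in EDB against Sham and -1.06 in EDB against ICH.

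**Figure D3:**
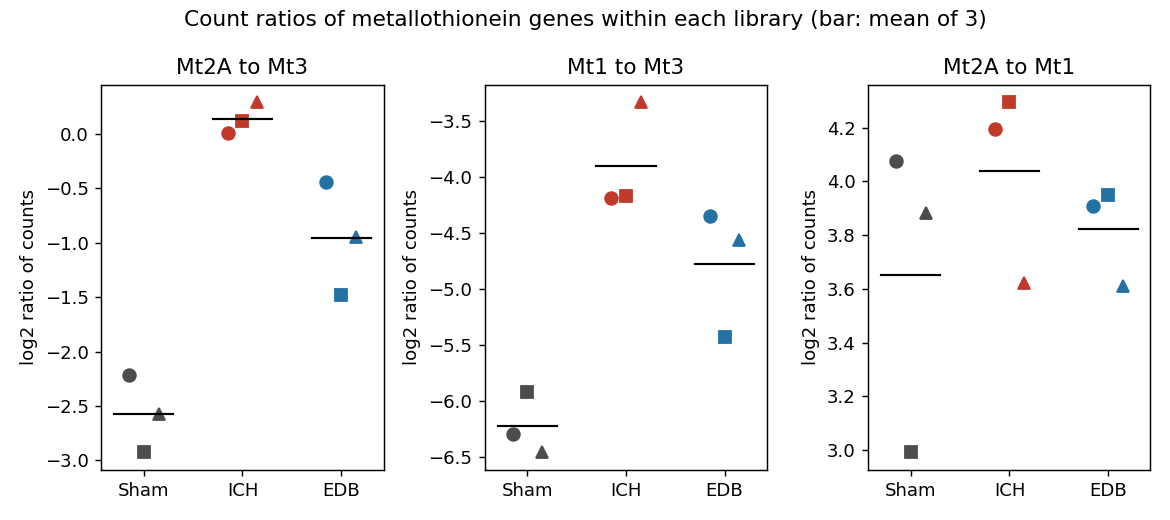
Log2 ratio of counts within each library for Mt2A to Mt3, Mt1 to Mt3 and Mt2A to Mt1, with circles, squares and triangles for replicates 1, 2 and 3 and a bar at the mean of 3. The Mt2A to Mt3 ratio separates the groups, near -2.57 in Sham, 0.14 in ICH and -0.95 in EDB, while the Mt2A to Mt1 ratio overlaps among them; the y axes do not start at 0.

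Slc30a3 loads zinc into synaptic vesicles of glutamatergic neurons. Its counts were low, with 24, 63 and 55 in Sham, 105, 27 and 13 in ICH and 24, 17 and 26 in EDB. In CPM these were 1.4998, 4.31 and 3.89, then 6.12, 1.70 and 0.702, then 1.48, 1.02 and 1.63. The groups overlapped, ICH spanned the whole range, and no comparison was called (log2 fold changes -0.18 ± 0.66, -1.04 ± 0.69 for EDB against ICH and -1.23 ± 0.69 for EDB against Sham). Slc17a7, the vesicular glutamate transporter of cortical neurons, stood at 21.0, 50.3 and 58.3 CPM in Sham, 44.0, 17.6 and 16.4 CPM in ICH and 27.1, 12.6 and 11.3 CPM in EDB. The 3 libraries with the most Slc30a3, which were ICH 1, Sham 2 and Sham 3, were also the 3 with the most Slc17a7. Of the 10 cortical glutamatergic neuron markers, 9 passed the filter on low counts. All 10 summed to 54.6 to 104 CPM in Sham, 51.2 to 92.2 CPM in ICH and 42.3 to 70.5 CPM in EDB. Slc17a7 alone held 58.3 of the 104 CPM in Sham 3. The part of these markers in the spread of Slc30a3 was not tested.

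**Figure D4:**
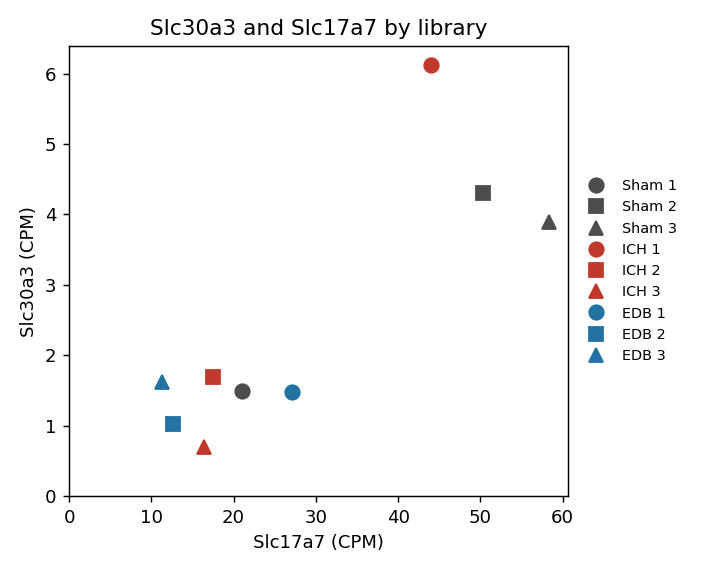
CPM of Slc30a3 (y axis) against CPM of Slc17a7 (x axis) in each of the 9 libraries, colored by group. ICH 1, Sham 2 and Sham 3 lie apart at 3.89 to 6.12 CPM of Slc30a3, and the other 6 libraries lie at or below 1.70 CPM.

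Among the other metallothioneins, Mt1m had 0 counts in all 9 libraries, which allows up to 0.212 CPM in a library by counting error, and Mt4 had 2 counts in EDB 1, 1 in EDB 2 and 0 elsewhere. In the order of the GRCr8 gene table, Mt1, Mt2A, Mt3 and Mt4 are adjacent. Of the 4 nearest counted protein-coding genes on either side, a window chosen after the files were seen, only Nlrc5, a regulator of MHC class I genes, was called in any of the 3 comparisons (1.68 ± 0.23, adjusted p = 0.000477 in ICH against Sham). Nlrc5 also rose in EDB against Sham (1.23 ± 0.22, adjusted p = 0.00783) and was not called in EDB against ICH (-0.45 ± 0.22). Over all tested genes, 18.7% were called in ICH against Sham, 7.66% in EDB against Sham and 0.687% in EDB against ICH. The immediate neighbours Nup93, a nuclear pore protein, and Bbs2, a protein of the ciliary BBSome, had -0.10 ± 0.16 and -0.27 ± 0.15 in ICH against Sham.

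Of 8 other Slc30 exporters, 6 were tested. In ICH against Sham 11.4% of all genes tested rose and 7.3% fell. Of the 6, 1 rose and 5 were not called, with a median log2 fold change of -0.09 beside 0.01 over all genes tested. The one was Slc30a7, which moves zinc into the Golgi (0.83 ± 0.22, adjusted p = 0.0228), and its call was lost on leaving out either Sham 2 or Sham 3, or either ICH 1 or ICH 3 (adjusted p between 0.0511 and 0.0752) and without Sham 2, ICH 1 and EDB 3 together (0.60, adjusted p = 0.106). Slc30a6, another Golgi transporter, had 0.37 ± 0.16 and Slc30a10, a manganese exporter, -0.30 ± 0.20. In EDB against ICH none of the 6 was called by edgeR, DESeq2 or limma-voom, 1 had an unadjusted p under 0.05, and the median was -0.15 beside -0.03. In EDB against Sham none was called by these tools, 0 had an unadjusted p under 0.05, and the median was -0.10 beside -0.01. Slc30a8 had 0 counts in every library.

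Of 13 other Slc39 importers, 11 were tested, and Slc39a7 had 0 counts in every library. In ICH against Sham 2 rose and 9 were not called, beside 11.4% of all genes tested that rose, with a median of 0.03 beside 0.01. Slc39a1, a plasma membrane zinc importer, stood at 62.8, 68.9 and 59.7 CPM in Sham, 139, 170.1 and 141 CPM in ICH and 127, 107 and 119 CPM in EDB. The 3 groups were separate, with ICH highest and EDB between. Its log2 fold change was 1.23 ± 0.12 in ICH against Sham (adjusted p = 8.23e-05) and 0.88 ± 0.12 in EDB against Sham (adjusted p = 0.00199), both called under all 18 alternatives, and -0.35 ± 0.12 in EDB against ICH (adjusted p = 0.200). Slc39a6, a zinc importer of the LIV-1 subfamily, rose by 0.56 ± 0.13 in ICH against Sham (adjusted p = 0.0106), which was lost without Sham 2, ICH 1 and EDB 3 together (adjusted p = 0.0506). Slc39a8, which imports zinc and manganese, had 1.08 ± 0.41 in that comparison (adjusted p = 0.0941). Without those 3 libraries the importer Slc39a10 was called as a fall (-0.78, adjusted p = 0.0226; -0.46 ± 0.20 with all). In EDB against ICH none of the 11 was called by edgeR, DESeq2 or limma-voom, although 4 had an unadjusted p under 0.05 (median 0.06 beside -0.03). In EDB against Sham Slc39a1 was the 1 of 11 called (median 0.09 beside -0.01), beside 4.95% of all genes tested called as higher.

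**Figure D5:**
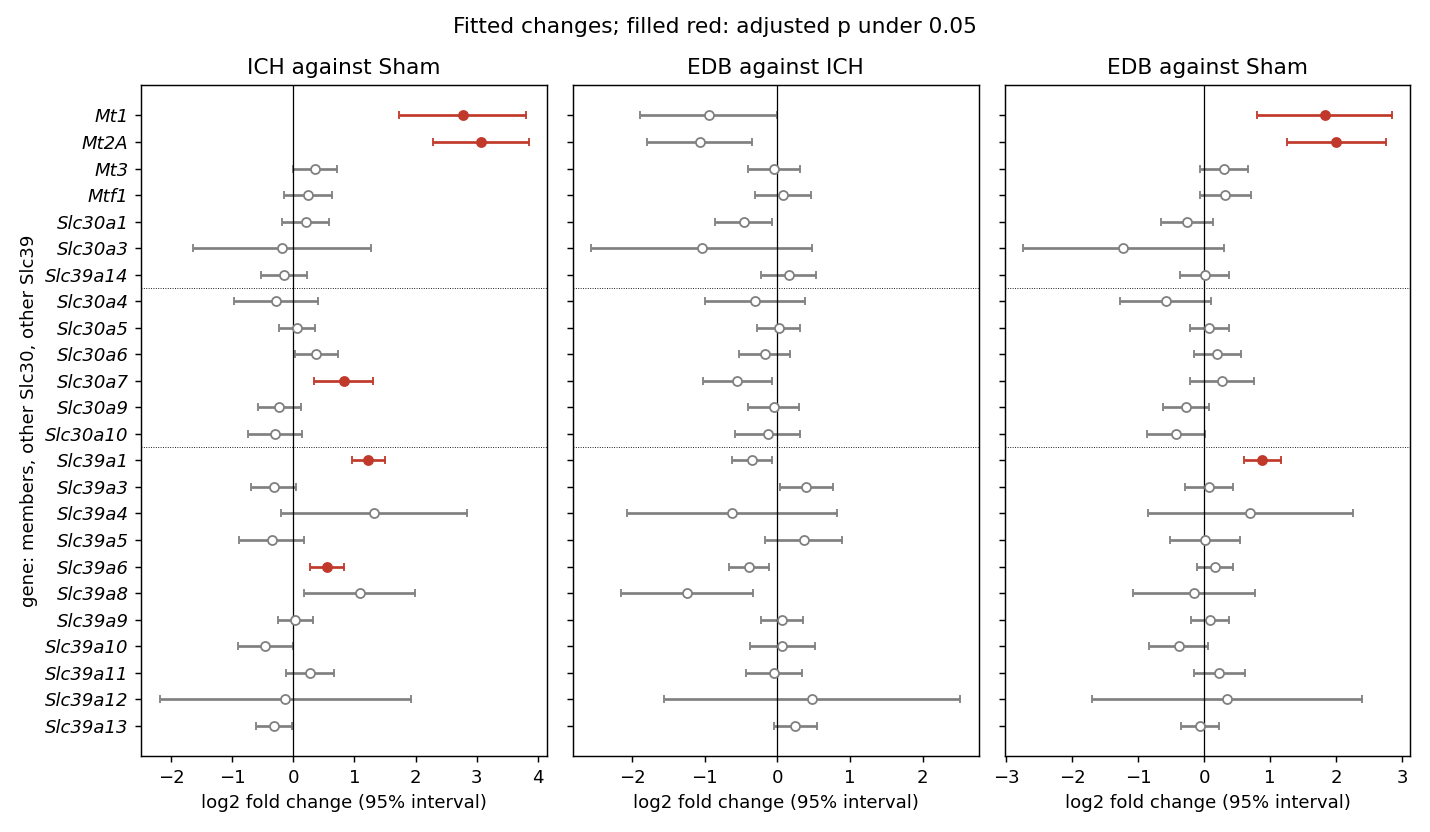
Log2 fold change with its 95% interval for the 7 genes, 6 other Slc30 genes and 11 other Slc39 genes in the 3 comparisons; filled red points passed an adjusted p of 0.05. Mt1 and Mt2A pass in ICH against Sham and EDB against Sham, Slc39a1 passes in both, Slc30a7 and Slc39a6 pass in ICH against Sham, and no gene passes in EDB against ICH.

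Over all genes tested, 11.4% rose in ICH against Sham, 4.95% in EDB against Sham and 0.056% in EDB against ICH. Metallothioneins also bind copper, and 11 of 14 copper handling genes were tested. In ICH against Sham 2 rose, the metalloreductase Steap4 (1.39 ± 0.34, lost without ICH 1 at adjusted p = 0.0662) and the copper oxidase ceruloplasmin, Cp (1.71 ± 0.46, lost without Sham 1, Sham 2 or ICH 1 at adjusted p from 0.0563 to 0.113), with a median of 0.49 beside 0.01. Without Sham 2, ICH 1 and EDB 3 together Steap4 (adjusted p = 0.0753) and Cp (0.78, adjusted p = 0.0677) were not called, and Atox1, a copper chaperone, was (0.84, adjusted p = 0.0295). Atox1 was also called there without Sham 2 alone (0.74, adjusted p = 0.0410). The metalloreductase Steap2 rose in EDB against Sham (1.42 ± 0.20, adjusted p = 0.00204), as the 1 of 11 called by edgeR. Atox1 was called there with DESeq2 (0.65, adjusted p = 0.0406), without Sham 2 (0.81, adjusted p = 0.0401) and without Sham 2, ICH 1 and EDB 3 (0.89, adjusted p = 0.0307). In EDB against ICH Steap2 was the 1 of 11 called by edgeR (1.03 ± 0.20, adjusted p = 0.0485), and that call was lost without any one of Sham 1, Sham 3 or the 6 ICH and EDB libraries (adjusted p from 0.0634 to 0.196) and without Sham 2, ICH 1 and EDB 3 together (adjusted p = 0.0802). The copper pump Atp7a had -1.54 ± 0.43 there (adjusted p = 0.120), which DESeq2 called (-1.52, adjusted p = 0.0271).

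Of 5 tested genes known from mouse as Mtf1 targets, none was called in ICH against Sham by edgeR, DESeq2 or limma-voom, and 2 had an unadjusted p under 0.05 (median 0.16 beside 0.01). They were Ndrg1, a stress-responsive gene (0.41 ± 0.17), and Slc39a10. The list gives no direction of Mtf1's effect on each gene, so its medians have no expected sign. Ndrg1 was called without ICH 3 (0.57, adjusted p = 0.0403). None was called in EDB against ICH by these tools either, where 2 had an unadjusted p under 0.05 (median 0.13 beside -0.03). In EDB against Sham Ndrg1 was the 1 of 5 that rose (0.93 ± 0.17, adjusted p = 0.00917, median 0.48 beside -0.01), beside 4.95% of all genes tested. The 6 oligodendrocyte markers summed to 16678 to 27086 CPM in Sham and 37209 to 42916 CPM in EDB. Of these markers 0 were called as higher in EDB against Sham by edgeR and 4 by DESeq2. Their part in the rise of Ndrg1 was not tested. Gclc, a subunit of the glutathione synthesis enzyme, had 0.16 ± 0.11 in ICH against Sham.

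Metallothioneins are also known to respond to glucocorticoids and to interleukin-6. Of 11 tested glucocorticoid-responsive genes, 1 rose and 2 fell by edgeR in ICH against Sham (median 0.15 beside 0.01). Over all genes tested, 11.4% rose and 7.3% fell in that comparison. DESeq2 called 3 as higher, and the edgeR count of rises ran from 0 to 2 over single libraries left out. Angptl4, a lipoprotein lipase inhibitor, was called as a rise with DESeq2 (0.81, adjusted p = 0.0268) and without EDB 1, EDB 2 or EDB 3 (0.84 each, adjusted p from 0.00951 to 0.0466). Tsc22d3, a glucocorticoid-induced leucine zipper, fell (-0.60 ± 0.10, adjusted p = 0.00194). The kinase Sgk1 rose (0.62 ± 0.16, lost without Sham 1, Sham 3, ICH 1 or ICH 2 at adjusted p between 0.0502 and 0.0977), and the clock gene Per1 fell (-0.79 ± 0.22, lost without Sham 1, Sham 2, ICH 1 or ICH 3 at adjusted p from 0.0588 to 0.102, and lost at -0.49, adjusted p = 0.161, without Sham 2, ICH 1 and EDB 3). None of the 11 was called by edgeR in EDB against ICH, 2 had an unadjusted p under 0.05, and DESeq2 called Tsc22d3 as higher (0.42, adjusted p = 0.00497). Sgk1 rose in EDB against Sham (0.71 ± 0.16), a call lost without Sham 1, Sham 3 or EDB 2 (adjusted p from 0.0620 to 0.0993).

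Of 11 tested interleukin-6 and Stat3 responsive genes, 9 rose in ICH against Sham, beside 11.4% of all genes tested. The median was 1.496 beside 0.01. Without Sham 2, ICH 1 and EDB 3 together 7 rose and 1 fell, as was so without Sham 2 alone, and the rises ran from 7 to 9 over single libraries left out. The gene that fell, named after its values were seen, was Serpina3n, with 119, 0 and 107 counts in Sham and 0, 17 and 10 in ICH. Its Sham counts stood in Sham 1 and Sham 3, the libraries high in liver markers, and the cause was not tested. The transcription factor Cebpd (2.19 ± 0.14), the protease inhibitor Timp1 and the signalling inhibitor Socs3 (2.89 ± 0.29) had the smallest p. In EDB against ICH 0.631% of all genes tested fell by edgeR. Of the 11, 3 fell by edgeR in EDB against ICH (median -0.73 beside -0.03), while DESeq2 called 7 as lower and limma-voom 4. These were Cebpd (-1.27 ± 0.13, adjusted p = 0.00384), Socs3 (-1.84 ± 0.27, adjusted p = 0.0244, lost without ICH 1, ICH 2, EDB 2 or EDB 3) and Timp1 (-1.60 ± 0.31, adjusted p = 0.0475, lost on leaving out any single library other than Sham 2 and EDB 1, and without Sham 2, ICH 1 and EDB 3 together). The count of falls ran from 1 to 4 over single libraries left out and was 2 without Sham 2, ICH 1 and EDB 3. In EDB against Sham 5 of 11 rose (median 0.77 beside -0.01), beside 4.95% of all genes tested, and leaving out Sham 1 left 3.

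Markers of astrocytes and of microglia were set beside the metallothioneins. The 14 astrocyte markers, all detected, summed to 9328 to 10519 CPM in Sham, 12823 to 13997 CPM in ICH and 10373 to 11980 CPM in EDB. Without Gfap, an intermediate filament gene of reactive astrocytes, the other 13 summed to 8784 to 10116 CPM in Sham, 7658 to 9453 CPM in ICH and 7569 to 8210.5 CPM in EDB, so that ICH overlapped both other groups and EDB lay below Sham. Of the 14, 3 rose and 3 fell in ICH against Sham, beside 11.4% and 7.3% of all genes tested. The median was -0.03, and no fall was called without Sham 3 or ICH 2 or without Sham 2, ICH 1 and EDB 3. Gfap rose by 3.34 ± 0.18, the gap junction gene Gja1 by 0.60 ± 0.14, and the gap junction gene Gjb6 fell (-0.90 ± 0.22). The 11 microglia and macrophage markers, all detected, summed to 603 to 696 CPM in Sham, 3256 to 3326 CPM in ICH and 1432 to 2506 CPM in EDB. The part of these cells in the rise of Mt1 and Mt2A was not tested.

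The genes whose log2 CPM ran closest to those of the called members over the 9 libraries were found by root mean square difference after centring each gene, among 10613 genes that matched a RefSeq symbol and had a mean of at least 5 CPM. Nearest to Mt2A were Tspo, the mitochondrial translocator protein (0.295), Serping1, the C1 inhibitor (0.330), and Glipr2, a Golgi-associated protein (0.334). Nearest to Mt1 were C1qa, a chain of complement C1q (0.532), Serping1 (0.538) and Glipr2 (0.543). In ICH against Sham, C1qa rose by 2.43 ± 0.21, Glipr2 by 2.91 ± 0.29, Serping1 by 3.08 ± 0.20 and Tspo by 3.52 ± 0.25, each as log2 fold change, with no overlap between the groups; the choice for likeness fixes these directions, so they are a description. Against ICH, Tspo (-1.19 ± 0.22), Serping1 (-1.09 ± 0.19) and Glipr2 (-1.45 ± 0.27) fell in EDB (adjusted p from 0.0411 to 0.0445), and C1qa was not called (-0.52 ± 0.20). The choice for likeness used all 9 libraries, EDB among them, so these lower levels are likewise a description. The 3 falls were lost on leaving out any single library other than Sham 2 and, for Tspo and Serping1, EDB 1 (adjusted p up to 0.158), and those of Tspo and Glipr2 also without Sham 2, ICH 1 and EDB 3 together.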

How the data were processed

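Read counts per gene, 1 file per library, were used as deposited, and they are whole numbers that the authors had not normalized. HISAT2, HTSeq, cutadapt and limma, with the build Rnor_6.0, are named per the submitters' processing notes, without roles. Versions, annotation and strandedness were not stated there, so reads shared by near-identical genes may have been dropped or divided. The test was edgeR 4.0.16 under R 4.3.3 (filterByExpr, TMM, glmQLFit with robust dispersions, 1 mean per group over 9 libraries). Intervals are the log2 fold change plus or minus the t quantile times its SE. Every library pair within a group differed beyond sampling noise. Alternatives were RLE or no scaling, other filters, DESeq2 1.42.0, limma-voom (limma 3.58.1), subsets of libraries and the replicate number as a block. The procedure was also run on counts simulated with the fitted dispersions. Those held no libraries that stood apart from their group, and the outcome is not given here.

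The 7 members and the gene lists were chosen with earlier results of these data known. Besides the members, up to 3 tested genes of each pathway list with the smallest p per comparison were named, and the 3 genes most like each called member. A count of 0 allows up to 3 counts. Such floors cover counting error only, since PCR copies are not independent molecules. Names and neighbours were taken from the GRCr8 gene table.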

Additional observations from a re-analysis of the deposited data

How the results depend on the processing

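In ICH against Sham, Mt1 and Mt2A kept their calls and direction under each alternative run. The number of genes called there ran from 1769 to 2624 when single libraries were left out, against 2670, and the log2 difference in the Mt2A to Mt3 ratio was 2.33 with Mt1 in place of Mt2A. In EDB against ICH, the genes called were 98, but 696 with DESeq2, 182 with limma-voom, 198 without Sham 2, ICH 1 and EDB 3, and from 8 (without ICH 2) to 321 (without Sham 2) with single libraries left out; DESeq2 called 1 member where edgeR called 0. In EDB against Sham, the genes called were 1094, but 1796 with DESeq2 and 508 to 1661 with single libraries left out. The members called there were 1 with limma-voom, 0 without Sham 2, ICH 1 and EDB 3, an alternative chosen after seeing the data, and 1 to 2 with single libraries left out.

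Same-numbered libraries did not deviate together (correlations from -0.307 to 0.222), and 2, 2 and 0 of 6 libraries correlated best with their own number in ICH against Sham, EDB against ICH and EDB against Sham. With the replicate number as a block, EDB against ICH had 58 genes called and EDB against Sham 1 member, since Mt1 had an adjusted p of 0.0700.

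Values that were not called changed sign, and the cause was not tested. Slc39a14 in EDB against Sham had -0.005752 with RLE, -0.005513 with DESeq2 and -5.463e-05 with the replicate block. Without Sham 2, ICH 1 and EDB 3, EDB against ICH gave 0.0733 for Slc30a3, -0.21 for Per1, 0.10 for Slc30a9 and -0.31 for Slc31a1, and EDB against Sham gave -0.12 for Slc31a1. With library size only, EDB against ICH gave -0.0106 for Atox1 and -0.0424 for Per1. With single libraries left out, ICH against Sham ran from -1.43 to 0.28 for Slc30a3, -0.0480 to 0.32 for Csrp1 and -0.57 to 0.0860 for Slc30a4. EDB against ICH ran from -1.505 to 0.205 for Slc30a3, -0.20 to 0.11 for Mt3, -0.0773 to 0.18 for Mtf1, -0.1005 to 0.22 for Atox1, -0.0796 to 0.20 for Sgk1, -0.18 to 0.0338 for Slc30a9, -0.39 to 0.51 for Slc31a1, -0.11 to 0.25 for Slc39a10, -0.20 to 0.0682 for Slc39a11 and -0.12 to 0.18 for Per1. EDB against Sham ran from -0.12 to 0.13 for Slc39a14, -0.21 to 0.42 for Angptl4, -0.0436 to 0.86 for Slc31a1 and -0.43 to 0.0857 for Slc39a8. The low counts of Mt1 and Slc30a3 limit their precision.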

Other observations

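Slc39a12, a zinc importer known from brain and chosen here after its values were seen, stood at 7.62, 9.30 and 9.56 CPM in Sham, at 3.03, 2.77 and 18.3 CPM in ICH and at 2.85, 3.30 and 27.5 CPM in EDB. ICH 3 and EDB 3 were the highest of the 9 libraries, EDB 3 being the library with choroid plexus transcripts, and no comparison was called (log2 fold change -0.13 ± 0.92 in ICH against Sham). In ICH against Sham 7.3% of all genes tested fell by edgeR. Of the remaining marker lists, striatal projection neuron genes had 4 of 8 fallen there (6 with DESeq2, 1 without Sham 2, ICH 1 and EDB 3). That count ran from 1 to 4 over single libraries left out, being lowest without ICH 1 or ICH 3. Of 9 endothelial and pericyte genes 2 fell (3 with DESeq2, and 5 without Sham 2, ICH 1 and EDB 3).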
